A study of Mus musculus with 8 samples.

Results

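Pax5 encodes the transcription factor that commits lymphoid progenitors to the B cell lineage, and Zcchc7, its head-to-head neighbour on mouse chromosome 4, encodes a zinc knuckle protein known in human cells from a nuclear RNA decay complex. The accessible regions assigned to these genes were followed by ATAC-seq, a method that reads open DNA from where the Tn5 transposase can cut and tag it, after degradation of EBF1. A region belonged to the gene whose RefSeq protein-coding span (GRCm38) was nearest to its centre, within 100 kb. For Pax5 there were 14 regions of 54239 in the EBF1-dTAG_C table and 23 of 55193 in the EBF1-dTAG_N table, and for Zcchc7, kept as a separate group, 22 in each. Joined where they overlapped, these 81 regions formed 49 intervals, 25 of Pax5 and 24 of Zcchc7, of which 30 held a region in both tables.

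All samples were A-MuLV transformed pro-B cells, B cell progenitors kept growing by the Abelson leukaemia virus, in which exogenous, modified genes stand in for endogenous EBF1. The treated groups were EBF1-dTAG_C cells and EBF1-dTAG_N cells after 6 h with 0.5 uM dTAG-13, each set against the same line after 6 h with DMSO, the solvent, and each with 2 libraries of 50000 cells. The titles call the DMSO libraries 0 h, and the treatment label was followed. dTAG-13 is a compound that directs a protein carrying the dTAG degron to degradation; the loss of EBF1 itself was not measured here, and the sources used here do not say whether a line is 1 clone. The series calls the libraries of a group biological replicates.

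EBF1 and PAX5 stand at the centre of the B cell programme: EBF1 is known to help switch Pax5 on, and PAX5 in turn sustains Ebf1 and activates genes of B cell identity while repressing genes of other lineages. Pax5 is transcribed from a pair of alternative promoters and is known to have an enhancer within its own introns. The region of Zcchc7 is known for distal enhancers that act on Pax5. The ATAC-seq signal of bulk cells cannot tell fewer cells with an open element from less opening per cell.

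Pax5 (GRCm38 chr4:44524748-44710694) is read from the minus strand and Zcchc7 (chr4:44756558-44932215) from the plus strand, so that their starts face away from each other across 45.9 kb. Positions below are therefore given as distance from the Pax5 start: downstream is into Pax5, and upstream is towards, through and beyond Zcchc7. The start windows of both genes, 300 bases from RefSeq (GRCm38.p6), are shown because both were open in all 8 libraries. They are written 5′ to 3′ on the gene's own strand, 250 bases before the start and 50 after it. Capitals mark the bases that lie between the outermost of the 8 peak summits at the start region, as far as the window reaches.
Pax5: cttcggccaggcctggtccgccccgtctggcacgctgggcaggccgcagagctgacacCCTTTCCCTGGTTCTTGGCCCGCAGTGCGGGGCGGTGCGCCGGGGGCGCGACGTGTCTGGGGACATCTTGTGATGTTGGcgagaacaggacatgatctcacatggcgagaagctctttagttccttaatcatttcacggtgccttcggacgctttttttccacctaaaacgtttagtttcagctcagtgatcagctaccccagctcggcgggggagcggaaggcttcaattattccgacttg
Zcchc7: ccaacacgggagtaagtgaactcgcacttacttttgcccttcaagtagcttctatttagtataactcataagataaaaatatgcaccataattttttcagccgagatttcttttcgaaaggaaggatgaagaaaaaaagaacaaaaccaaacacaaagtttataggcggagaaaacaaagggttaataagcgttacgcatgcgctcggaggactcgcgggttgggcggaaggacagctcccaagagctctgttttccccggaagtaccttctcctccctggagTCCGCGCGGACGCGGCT
The Pax5 window (chr4:44710645-44710944, minus strand) lay whole within the deposited region chr4:44710617-44711039, and all 8 summits fell 114 to 192 bp before the start. At Zcchc7 (window chr4:44756309-44756608, plus strand; region chr4:44756456-44756919) the summits lay 33 to 93 bp after the start, 5 of 8 of them inside the window. The G+C content was 59.0% for Pax5 and 46.0% for Zcchc7, against a median of 52.7% over 32817 start windows. The palindromic core of the EBF1 site, searched as CCCNNGGG on both strands, had no match in either window, against 13.7% of all start windows of this length. The longer form of it, with T before and A after the same letters, likewise had none, against 0.905% of all windows. The ETS factor motif CCGGAAGT, on both strands, occurred once in the Zcchc7 window and not in the Pax5 window, against 3.89% of all windows. Sequences of the distal regions are not printed here.

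Peaks per library numbered 34202 to 42139. The lowest background pileup, which follows sequencing depth, was 0.229 and 0.258 tags in EBF1-dTAG_C after dTAG-13, against 0.344 and 0.331 with DMSO, and 0.348 and 0.372 in EBF1-dTAG_N after dTAG-13, against 0.408 and 0.401 with DMSO. The dTAG-13 libraries were thus shallower in both lines. Start windows of B lineage genes carried a peak in all 4 DMSO libraries for 5 of 8 genes with a window (Cd79a, Vpreb1, Igll1, Blnk and Pax5), and the Ebf1 window in none. Of T cell genes this held for 1 of 5 (Lck), with no DMSO peak at 4, and of myeloid and erythroid genes for 0 of 5 and 0 of 4, with no DMSO peak at 5 and 2.

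After dTAG-13, 5 distal elements assigned to Zcchc7 lost most of their accessibility in both lines. In Pax5 itself 2 regions near the RefSeq start fell in both lines by a smaller factor, and the regions at the RefSeq start of neither gene passed the test. Only 1 start of Pax5 was used. The other of its alternative promoters was not located among these regions, so its change was not assessed. By the authors' deposited table, in EBF1-dTAG_C 2 of 14 Pax5 regions fell (14.3%) and 0 rose, against 6.62% falling and 0.308% rising among all regions of that table. For Zcchc7 in the same line 5 of 22 fell (22.7%) and 0 rose. By the authors' deposited table, in EBF1-dTAG_N 6 of 23 Pax5 regions fell (26.1%) and 3 rose, against 18.5% and 18.8% of all regions, and 6 of 22 Zcchc7 regions fell (27.3%) and 0 rose. A region counted as fallen or risen at an adjusted p under 0.05 there; the test is edgeR's, per the submitters' processing notes. The share of Zcchc7 regions that fell in EBF1-dTAG_C and the absence of Zcchc7 rises in EBF1-dTAG_N lie away from the shares over all regions, but each rests on 22 regions and was not tested as a difference. At an unadjusted p under 0.05, 0 Pax5 and 2 Zcchc7 regions were higher in EBF1-dTAG_C by the authors' deposited table. In EBF1-dTAG_N 5 Pax5 regions and 1 Zcchc7 region were higher at that threshold. The share of all regions higher at an unadjusted p under 0.05 was not counted, so these counts are a description only.

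The falls at Zcchc7 were deep. In EBF1-dTAG_C they ran from 2.99-fold to 6.29-fold and in EBF1-dTAG_N from 2.98-fold to 6.34-fold by the authors' deposited table, where all 5 that fell in EBF1-dTAG_C also fell in EBF1-dTAG_N. At Pax5 the 2 falls of EBF1-dTAG_C were 1.68-fold and 1.69-fold. The median log2 fold over all regions of a group stayed near that of its table in EBF1-dTAG_C, with 0.03 (Pax5) and 0.09 (Zcchc7), against 0.09 over all regions. In EBF1-dTAG_N it lay below, with 0.04 and -0.03, against 0.17, by the authors' deposited table. These differences in median were not tested. The median of all regions in EBF1-dTAG_N is itself above 0 by more than 0.1, so a rise there is read against 0.17 below.

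**Figure D1:**
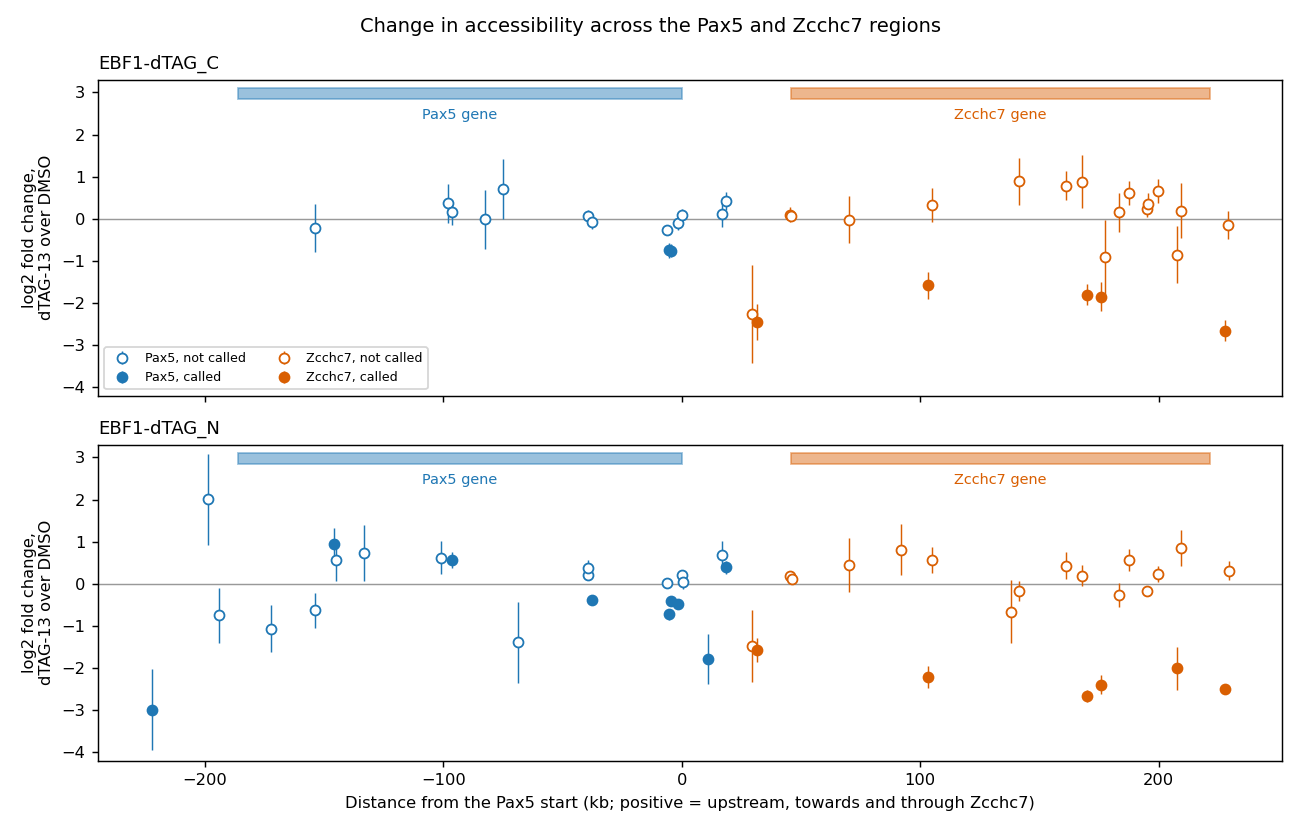
Log2 fold change (dTAG-13 over DMSO, y axis) of each region against its distance from the Pax5 start in kb (x axis), for EBF1-dTAG_C above and EBF1-dTAG_N below; bars are approximate standard errors, filled circles are regions called at an adjusted p under 0.05, and blocks show the gene spans. The filled Zcchc7 circles lie between -2.67 and -1.58 in both lines, while circles at both gene starts lie near 0.

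At the Pax5 start the region was open in every library. The summit pileup, the number of tags that cover the highest point of the peak, was 46 and 49 after dTAG-13 and 65 and 85 with DMSO in EBF1-dTAG_C. In EBF1-dTAG_N it was 50 and 80 after dTAG-13 and 85 and 78 with DMSO. Divided by the lowest background of each library, these were 201 and 190 after dTAG-13, against 189 and 257 with DMSO, in EBF1-dTAG_C, and 144 and 215, against 208 and 195, in EBF1-dTAG_N. On that scale the groups overlapped in both lines. The log2 fold was 0.08 in EBF1-dTAG_C (adjusted p = 0.868) and 0.22 in EBF1-dTAG_N (adjusted p = 0.0794) by the authors' deposited table, so no change passed. The second region at the start of EBF1-dTAG_N, chr4:44711216-44711400, rested on a peak in 1 library and stood at 0.04 by the authors' deposited table (adjusted p = 0.883).

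The first 10 kb of Pax5 downstream of the start held 4 open regions, which did not move alike. The 2 that fell in both lines lay 5.31 kb and 4.51 kb downstream. At the one farther from the start (chr4:44705248-44705525 in EBF1-dTAG_C), the summit pileup was 31 and 40 after dTAG-13, against 64 and 67 with DMSO, in EBF1-dTAG_C. In EBF1-dTAG_N it was 39 and 49 after dTAG-13, against 94 and 82 with DMSO. The values after dTAG-13 were the lower ones without overlap in each line, also after division by the lowest background (135 and 155 against 186 and 203 in EBF1-dTAG_C, 112 and 132 against 230 and 205 in EBF1-dTAG_N). Here and below, pileups come from the same libraries as the authors' test, so they describe a call and are no separate support. The share of all regions whose groups lie apart in this way was not counted. The fall was 1.68-fold in EBF1-dTAG_C (adjusted p = 0.0245) and 1.65-fold in EBF1-dTAG_N (adjusted p = 2.41e-07) by the authors' deposited table.

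The region at 4.51 kb (chr4:44706003-44706355 in EBF1-dTAG_C) had a summit pileup of 56 and 58 after dTAG-13, against 138 and 115 with DMSO, in EBF1-dTAG_C. In EBF1-dTAG_N the values were 91 and 114 after dTAG-13, against 152 and 132 with DMSO. The groups did not overlap in either line on these raw values, nor did they on the background scale (244 and 225 against 401 and 348 in EBF1-dTAG_C, 262 and 306 against 372 and 329 in EBF1-dTAG_N). The fall was 1.69-fold (adjusted p = 0.00824) in EBF1-dTAG_C and 1.32-fold (adjusted p = 0.000416) in EBF1-dTAG_N by the authors' deposited table.

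The other 2 regions of this stretch bracket that pair. The region chr4:44704362-44704810, 437 bp from the nearer falling one in EBF1-dTAG_C, had the highest mean abundance of all Pax5 regions in both tables, 6.73 and 6.43 on the log2 CPM scale. Its log2 fold was -0.27 in EBF1-dTAG_C (adjusted p = 0.227) and 0.02 in EBF1-dTAG_N (adjusted p = 0.840) by the authors' deposited table. Its summit pileup on the background scale was 471 and 512 after dTAG-13, against 520 and 466 with DMSO, in EBF1-dTAG_C, and 339 and 355, against 384 and 342, in EBF1-dTAG_N, with overlap in both lines. The region 1.45 kb downstream of the start (chr4:44709056-44709425 in EBF1-dTAG_N) fell 1.39-fold in EBF1-dTAG_N (adjusted p = 5.60e-06), and stood at -0.11 on the log2 scale in EBF1-dTAG_C (adjusted p = 0.817), by the authors' deposited table. There the summit pileup was 108 and 135 after dTAG-13, against 222 and 212 with DMSO, in EBF1-dTAG_N, and 98 and 93, against 145 and 158, in EBF1-dTAG_C. On the background scale the groups stayed apart in EBF1-dTAG_N (311 and 363 against 543 and 529) and overlapped in EBF1-dTAG_C (428 and 360 against 422 and 478).

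Deeper in Pax5, 2 regions lay 39.4 kb and 37.8 kb downstream in EBF1-dTAG_C and were open in all 8 libraries. The nearer one (chr4:44672586-44673186 in EBF1-dTAG_N) fell 1.31-fold in EBF1-dTAG_N (adjusted p = 0.000918) and stood at -0.07 on the log2 scale in EBF1-dTAG_C (adjusted p = 0.911) by the authors' deposited table. Its summit pileup in EBF1-dTAG_N was 47 and 69 after dTAG-13, against 67 and 81 with DMSO, and the groups overlapped there and on the background scale (135 and 185 against 164 and 202). The one farther from the start stood at 0.06 in EBF1-dTAG_C and, in its 2 pieces, at 0.20 and 0.36 in EBF1-dTAG_N, none of which passed (adjusted p = 0.902, 0.162 and 0.123 by the authors' deposited table). The region 18.4 kb upstream stood at 0.42 in EBF1-dTAG_C (adjusted p = 0.382) by the authors' deposited table. In EBF1-dTAG_N it is 1 of the 3 rises: 1.31-fold (adjusted p = 0.0293), beside 1.48-fold at chr4:44614322-44614665, 96.2 kb downstream (adjusted p = 0.00959), and 1.91-fold at chr4:44564638-44564888, 145.9 kb downstream (adjusted p = 0.0433), by the authors' deposited table. With folds centred on the median of all regions none of the 3 passed (adjusted p = 0.306, 0.104 and 0.133). The summit pileup in EBF1-dTAG_N was 43 and 59 after dTAG-13, against 55 and 52 with DMSO, at the first, and 40 and 44, against 40 and 25, at the next. The third held a peak in dTAG-13 replicate 2 alone, of 12 tags. On these raw values the groups overlapped at the first and met at the next. On the background scale they overlapped at the first (124 and 159 against 135 and 130) and lay apart at chr4:44614322-44614665, with 115 and 118 after dTAG-13, against 97.9 and 62.4 with DMSO.

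At the far end of Pax5 the nearest region was chr4:44556665-44556856 in EBF1-dTAG_C, at a log2 fold of -0.21 (adjusted p = 0.915), and chr4:44516630-44516779 in EBF1-dTAG_N, at -0.75 (adjusted p = 0.382), by the authors' deposited table. The remaining falls near Pax5 were of faint regions in EBF1-dTAG_N alone, and whether they differ from EBF1-dTAG_C was not tested, since that table holds no region there. At chr4:44488306-44488532, beyond the end of Pax5, the fall was 7.92-fold (adjusted p = 0.00790) by the authors' deposited table, with a summit pileup of 8 in both DMSO libraries and no peak after dTAG-13. At chr4:44721379-44721713, 10.9 kb upstream, it was 3.44-fold (adjusted p = 0.0101) by the authors' deposited table, with a single peak of pileup 11 in DMSO replicate 2. Mean abundance at these sites was 0.37 and 1.02 on the log2 CPM scale, below that of 93.1% and 79.7% of all regions by the authors' deposited table for that line.

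Between and beyond the genes, the 5 elements that fell in both lines lay 31.4, 103.3, 169.8, 175.6 and 228.0 kb upstream of the Pax5 start, 3 of them inside Zcchc7 and 2 outside it. The element farthest upstream was the most open. At chr4:44938343-44939030, 6471 bp past the end of Zcchc7, EBF1-dTAG_C had a summit pileup of 14 in dTAG-13 replicate 1 and no peak in replicate 2, against 49 and 83 with DMSO. EBF1-dTAG_N had 16 and 24 after dTAG-13, against 110 and 100 with DMSO. Every dTAG-13 library lay far below every DMSO library of its line. The fall was 6.29-fold (adjusted p = 5.14e-05) in EBF1-dTAG_C and 5.63-fold (adjusted p = 1.75e-115) in EBF1-dTAG_N by the authors' deposited table, and 3.27% and 6.76% of all regions had a log2 fold as low or lower.

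The elements 169.8 and 175.6 kb upstream, both inside Zcchc7, lie 5438 bp apart in EBF1-dTAG_C. At chr4:44880203-44880701, 169.8 kb upstream, the summit pileup was 8 and 6 after dTAG-13, against 46 and 32 with DMSO, in EBF1-dTAG_C. In EBF1-dTAG_N, dTAG-13 replicate 1 had 14 and replicate 2 no peak, against 89 and 71 with DMSO. The fall was 3.48-fold in EBF1-dTAG_C (adjusted p = 0.000668) and 6.34-fold in EBF1-dTAG_N (adjusted p = 1.89e-76) by the authors' deposited table. At chr4:44886140-44886516, 175.6 kb upstream, no peak was called in either dTAG-13 library of EBF1-dTAG_C, against pileups of 39 and 21 with DMSO. EBF1-dTAG_N had 7 and 7 after dTAG-13, against 57 and 47 with DMSO. In both lines the dTAG-13 libraries were therefore at or near the level below which no peak is called, and the fall was 3.60-fold (adjusted p = 0.00634) and 5.25-fold (adjusted p = 3.52e-25) by the authors' deposited table.

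Nearer to Pax5, the element at chr4:44813788-44814188, 103.3 kb upstream and inside Zcchc7, had a peak in 1 dTAG-13 library per line, with pileups of 6 in EBF1-dTAG_C and 10 in EBF1-dTAG_N. The DMSO pileups were 28 and 46 in EBF1-dTAG_C, with 66 and 52 in EBF1-dTAG_N. It fell 2.99-fold (adjusted p = 0.00978) and 4.64-fold (adjusted p = 7.29e-17) by the authors' deposited table. The element at chr4:44741963-44742251 lies between the starts, 31.4 kb from that of Pax5 and 14.5 kb from that of Zcchc7. Neither dTAG-13 library of EBF1-dTAG_C held a peak there, against pileups of 12 and 19 with DMSO, and in EBF1-dTAG_N dTAG-13 replicate 1 had 7 and replicate 2 no peak, against 28 and 31 with DMSO. The fall was 5.49-fold in EBF1-dTAG_C (adjusted p = 0.00402) and 2.98-fold in EBF1-dTAG_N (adjusted p = 4.58e-07) by the authors' deposited table.

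**Figure D2:**
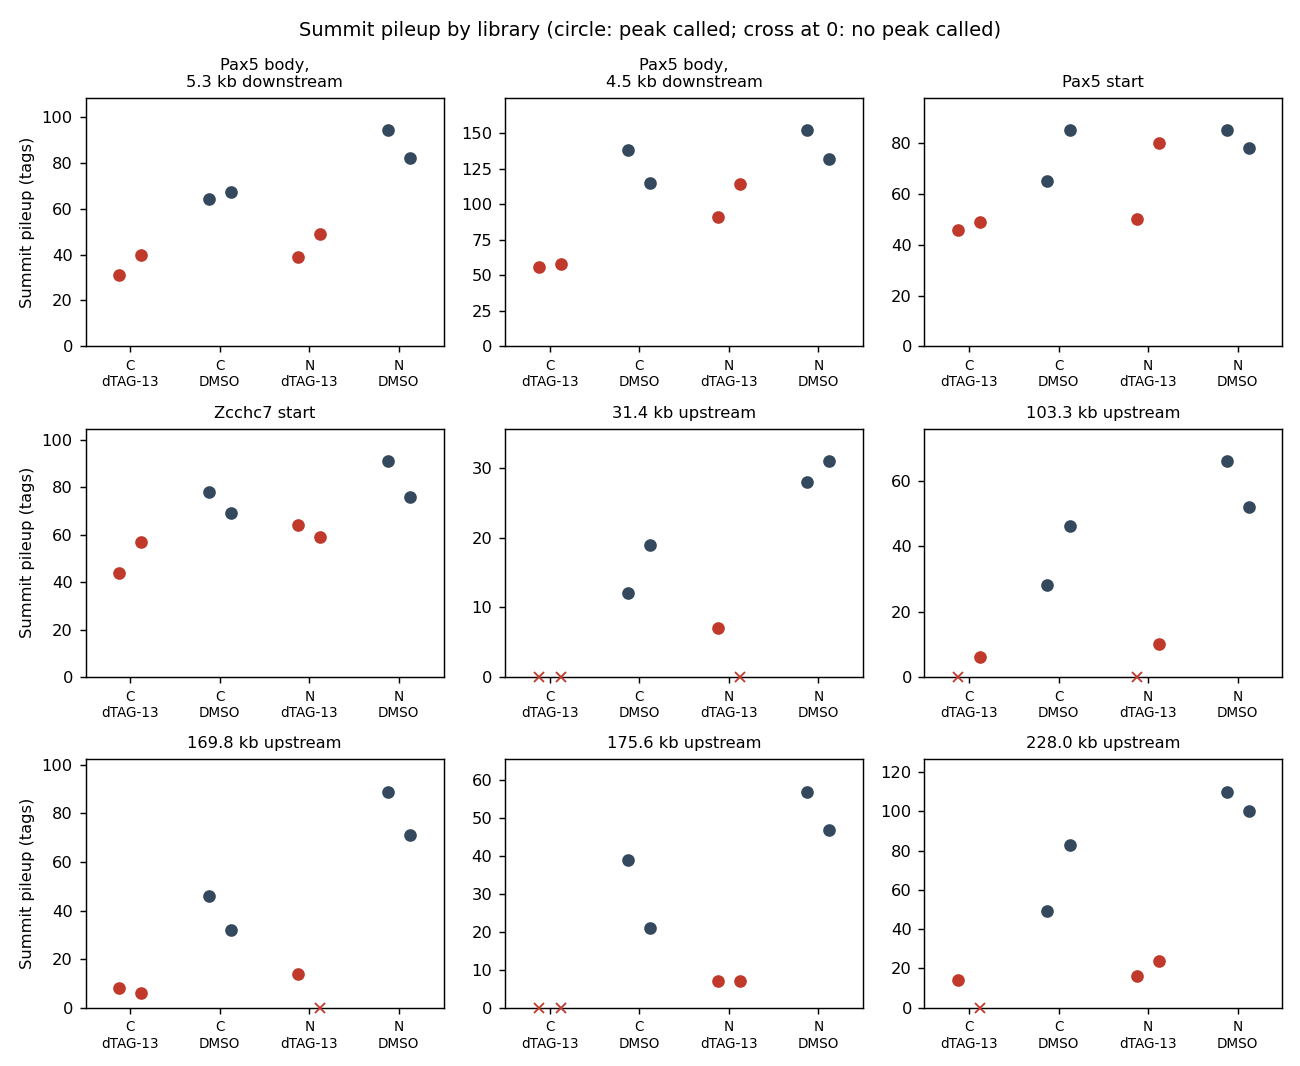
Summit pileup in tags (y axis, from 0, own scale per panel) of each library at the 7 regions that fell in both lines and at both gene starts, not scaled for depth; groups run from EBF1-dTAG_C (C) dTAG-13 and DMSO to EBF1-dTAG_N (N) dTAG-13 and DMSO, and a cross at 0 means that no peak was called. At the 228.0 kb element the dTAG-13 libraries reach at most 24 tags, and the DMSO libraries of EBF1-dTAG_N reach 110 and 100.

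Regions next to these elements did not pass, but their folds were not alike. Beside the 31.4 kb element, at a distance of 1646 bp, a faint region stood at -2.26 in EBF1-dTAG_C (adjusted p = 0.378) and -1.48 in EBF1-dTAG_N (adjusted p = 0.164), and 1787 bp from the 175.6 kb element chr4:44888304-44888499 stood at -0.91 in EBF1-dTAG_C (adjusted p = 0.704), by the authors' deposited table. Other neighbours lay nearer to 0 or above it. At 795 bp beyond the 228.0 kb element in EBF1-dTAG_C, chr4:44939826-44940128 stood at -0.15 on the log2 scale in EBF1-dTAG_C (adjusted p = 0.895) and at 0.31 in EBF1-dTAG_N (adjusted p = 0.286) by the authors' deposited table. The region 1290 bp from the 103.3 kb element stood at 0.33 and 0.57 (adjusted p = 0.773 and 0.149), and the region 1438 bp from the 169.8 kb element at 0.88 and 0.19 (adjusted p = 0.567 and 0.584), in EBF1-dTAG_C and EBF1-dTAG_N by the authors' deposited table. These neighbours were fainter than the elements beside them: chr4:44939826-44940128 had a mean abundance of 2.93 and 3.12, against 5.44 and 5.87 for the 228.0 kb element, on the log2 CPM scale in EBF1-dTAG_C and EBF1-dTAG_N. The difference in fold between an element and its neighbour was not tested.

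The Zcchc7 start was open throughout and did not pass in either line. Its main region, the most abundant of the group (6.33 and 6.20 on the log2 CPM scale in EBF1-dTAG_C and EBF1-dTAG_N), had a summit pileup of 44 and 57 after dTAG-13, against 78 and 69 with DMSO, in EBF1-dTAG_C. In EBF1-dTAG_N it was 64 and 59 after dTAG-13, against 91 and 76 with DMSO. On the background scale these were 192 and 221, against 227 and 209, with overlap in EBF1-dTAG_C, and 184 and 159, against 223 and 190, without overlap in EBF1-dTAG_N. The log2 folds were 0.08 (adjusted p = 0.852) and 0.11 (adjusted p = 0.325), and at the second start region, chr4:44756076-44756349, 0.10 and 0.18 (adjusted p = 0.866 and 0.292), in EBF1-dTAG_C and EBF1-dTAG_N by the authors' deposited table. Of the 17 Zcchc7 regions of EBF1-dTAG_C that did not pass, 16 had an absolute log2 fold under 1, and 15 of the 16 of EBF1-dTAG_N had, by the authors' deposited table. The exception in both was the faint region next to the 31.4 kb element. The 1 Zcchc7 region that fell in EBF1-dTAG_N and had no counterpart in EBF1-dTAG_C, chr4:44918443-44918666, was 4.01-fold lower (adjusted p = 0.000479) by the authors' deposited table and rested on 1 peak, of pileup 10 in DMSO replicate 1.

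The lines were set against each other at the 32 pairs of overlapping regions, 12 of Pax5 and 20 of Zcchc7. By the authors' deposited table of each line, 7 of the 32 pairs fell in both (2 of Pax5 and 5 of Zcchc7), against 7.97% of the 43350 pairs over the whole tables. Folds had the same sign in 25 of the 32 pairs, a share that was not counted over all pairs. No member pair differed between the lines in an approximate test with standard errors taken from the deposited F values, and 0% of all 43350 pairs did at an adjusted p under 0.05, so this test made no call anywhere. At an unadjusted p under 0.05 it was 1 of 32 members and 4.09% of all pairs. That pair was the 169.8 kb element, where the log2 fold of EBF1-dTAG_C minus that of EBF1-dTAG_N was 0.87 (95% interval 0.25 to 1.48), with both folds from the authors' deposited table. At the 228.0 kb element the same difference was -0.16 (-0.74 to 0.42), at the Pax5 region 5.31 kb downstream -0.03 (-0.51 to 0.46) and at the Pax5 start -0.14 (-0.53 to 0.25).

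**Figure D3:**
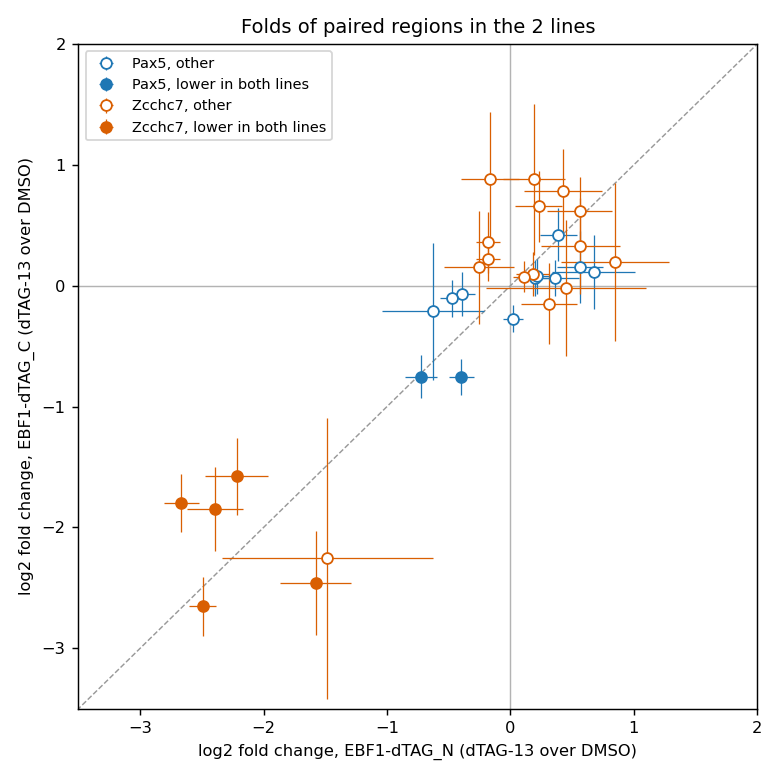
Log2 fold change (dTAG-13 over DMSO) of the 32 pairs of overlapping regions in EBF1-dTAG_C (y axis) against EBF1-dTAG_N (x axis); bars are approximate standard errors, filled circles fell in both lines, and the dashed line marks equal folds. The 5 filled Zcchc7 circles lie at log2 folds of -1.58 or lower in both lines, beside 1 open Zcchc7 circle with long bars at -2.26 (EBF1-dTAG_C) and -1.48 (EBF1-dTAG_N), and the 2 filled Pax5 circles lie between them and 0.

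Peaks were also counted per library. Pax5 had 11 and 12 peaks after dTAG-13, against 11 and 14 with DMSO, in EBF1-dTAG_C, and 14 and 12, against 13 and 15, in EBF1-dTAG_N. The mean difference over both lines was -1 peak (exact permutation test within lines, two-sided, p = 0.444; the smallest possible with 36 arrangements is 0.0556). Zcchc7 had 15 and 11 peaks after dTAG-13, against 15 and 18 with DMSO, in EBF1-dTAG_C, and 20 and 17, against 19 and 16, in EBF1-dTAG_N (difference -1.25, exact permutation p = 0.667). Among strong peaks, with −log10 q of at least 10, Zcchc7 had 6 and 6 after dTAG-13, against 11 and 12, in EBF1-dTAG_C, and 10 and 10, against 13 and 12, in EBF1-dTAG_N. The difference of -4 reached the smallest p that the design allows (exact permutation p = 0.0556). For Pax5 it was -0.25 (exact permutation p = 1.0). With −log10 q of at least 5 the differences were -2 for Zcchc7 (exact permutation p = 0.611) and -1 for Pax5 (exact permutation p = 0.278). The counts at both cutoffs were not adjusted for depth, and the dTAG-13 libraries were shallower in both lines. The change in strong peaks over the whole lists was not counted. With the same number of best peaks taken from each list, which sets the longer DMSO lists to the length of the shortest, the differences in all peaks turned to 0.75 for Pax5 (exact permutation p = 0.5) and 2 for Zcchc7 (exact permutation p = 0.611).

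The standing of a peak in its own list describes the same loci without a comparison of heights between lists. A complete loss of the peak call, with a peak in no dTAG-13 library but in both DMSO libraries of the line, was found at 0 Pax5 and 2 Zcchc7 regions of EBF1-dTAG_C, against 8.46% of all its regions, and at 1 and 0 of EBF1-dTAG_N, against 10.3%. Of the 49 intervals, 14 held a peak in all 8 libraries (9 of Pax5 and 5 of Zcchc7), and 17 in 1 library alone. The shares of such intervals over all regions were not counted, so these counts are a description only. Ranked by q-value, the peak of the 228.0 kb element stood 71.1% down the list of EBF1-dTAG_C dTAG-13 replicate 1, against 25.9% and 11.8% with DMSO. In EBF1-dTAG_N it stood at 70.8% and 51.6% after dTAG-13, against 11.1% and 11.9% with DMSO. Lists of different length do not give the same scale, so these places are a description.

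**Figure D4:**
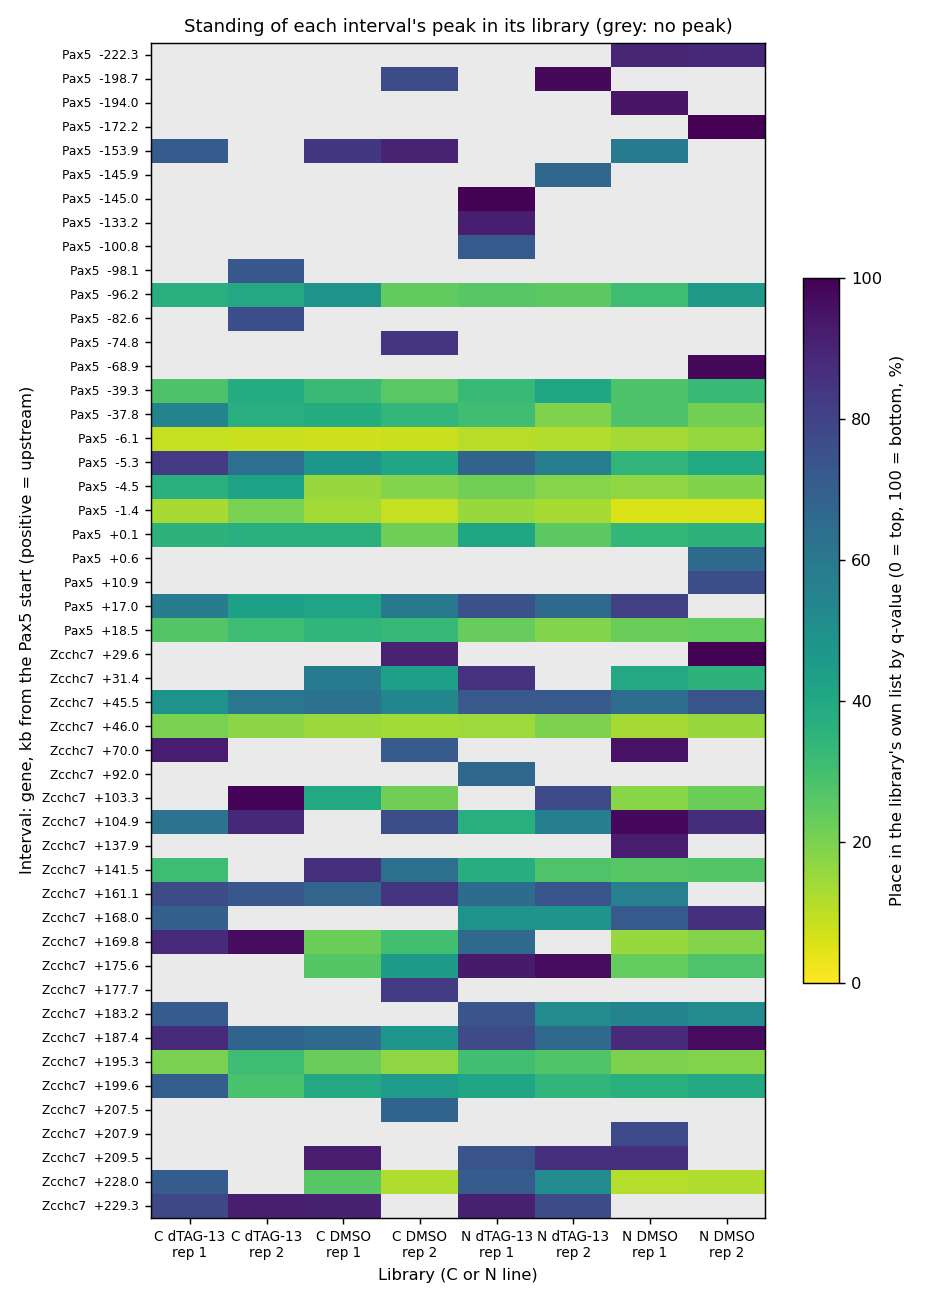
Place of each of the 49 intervals' peaks in its library's own list, as percent from the top by q-value (colour, 0 is the strongest peak), by distance from the Pax5 start in kb (rows) and library (columns, dTAG-13 left of DMSO in each line); grey means no peak. The rows at 169.8, 175.6 and 228.0 kb upstream are blue to dark or grey after dTAG-13 and green to yellow with DMSO, apart from 1 teal cell after dTAG-13 at 228.0 kb, while 14 rows are coloured in all 8 libraries.

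The folds of Pax5 regions varied little among themselves in EBF1-dTAG_C, with an SD over regions of 0.40 on the log2 scale, against a median of 0.91 over the 746 genes with at least 10 regions in both tables, 95.4% of which had a larger SD. In EBF1-dTAG_N it was 1.04, against 1.19. For Zcchc7 it was 1.16 and 1.19 in EBF1-dTAG_C and EBF1-dTAG_N. The Pax5 regions of EBF1-dTAG_C were also more abundant, with a median of 4.77 log2 CPM, against 2.42 over all regions. In EBF1-dTAG_N that median was 2.01, against 2.47. Whether the SD follows abundance was not tested. By median log2 fold in both tables, the genes most like Pax5 among the 745 others were Fgd3 and Fgd2, exchange factors for Cdc42, Ccr7, a chemokine receptor, Arap1, a GTPase-activating protein, and Zfp704, a zinc finger gene, at Euclidean distances of 0.0056 to 0.015. In EBF1-dTAG_C each of the 5 had 2 or 3 falling and 0 rising regions, of 10 to 14. Pax5 had 2 and 0 of 14, against 6.62% and 0.308% of all regions, by the authors' deposited table. In EBF1-dTAG_N Fgd3 and Arap1 each had 3 falling and 2 rising of 10, and Ccr7 had 5 and 4 of 13. Fgd2 had 6 and 2 of 15, Zfp704 2 and 0 of 12, and Pax5 6 and 3 of 23. There 18.5% of all regions fell and 18.8% rose, by the authors' deposited table.

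Around the pair, 15 protein-coding genes lie within 500 kb. Of their 68 regions in EBF1-dTAG_C, 8 fell (11.8%) and 0 rose, against 6.62% and 0.308% of all regions, by the authors' deposited table. Of 58 in EBF1-dTAG_N, 15 fell (25.9%) and 13 rose (22.4%), against 18.5% and 18.8% of all regions, by the authors' deposited table. Best-ranked by adjusted p in EBF1-dTAG_C were Grhpr, which encodes a glyoxylate reductase (log2 fold -1.62, adjusted p = 9.7e-05), Shb, an adaptor gene (-2.59, 0.00027), the kinase gene Melk (-2.97, 0.00052) and Gne, of sialic acid synthesis (-2.03, 0.0473), each by its best region by the authors' deposited table. The Melk region, chr4:44419314-44419709, lies in the stretch between Melk and the end of Pax5.

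Genes of the wider PAX5 circuit were counted from 3 lists, to be read against the shares of all regions that fell and rose, 6.62% and 0.308% (EBF1-dTAG_C) and 18.5% and 18.8% (EBF1-dTAG_N). Of 143 regions at 11 genes known to regulate Pax5 or to act with it in early B cells, 12 fell (8.39%) and 0 rose in EBF1-dTAG_C by the authors' deposited table. In EBF1-dTAG_N, of 157 regions 35 fell (22.3%) and 37 rose (23.6%) by the authors' deposited table, so that the shares lay near those of all regions. Best-ranked in EBF1-dTAG_C were Tcf3, the E2A gene (-1.96), the cytokine signal gene Stat5b (-2.35), Runx1 (-4.35) and Irf8 (-3.26), as log2 folds by the authors' deposited table. Of 218 regions at 21 genes known to be activated by PAX5, a list that shares Ebf1, Irf4 and Irf8 with the first, 29 fell (13.3%) and 0 rose in EBF1-dTAG_C, at 14 genes, against 6.62% of all regions falling, by the authors' deposited table. In EBF1-dTAG_N, of 226 regions 64 fell (28.3%) and 37 rose (16.4%), against 18.5% and 18.8%, by the authors' deposited table. Here Lef1 (-3.03), Bcar3 (-3.37) and the adaptor gene Nedd9 (-2.59) led by adjusted p in EBF1-dTAG_C, as log2 folds by the authors' deposited table.

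At 16 genes known to be repressed by PAX5, 5 of 81 regions fell (6.17%) and 0 rose in EBF1-dTAG_C, against 6.62% and 0.308% of all regions, by the authors' deposited table. At the 13 of them measured in EBF1-dTAG_N 26 of 98 fell (26.5%) and 22 rose (22.4%), against 18.5% and 18.8%, by the authors' deposited table. The best-ranked were the T cell factor gene Tcf7 (-2.97), Lmo2 (-2.09), the plasma cell regulator gene Prdm1 (-2.76) and the receptor gene Notch1 (-1.33), as log2 folds in EBF1-dTAG_C by the authors' deposited table. As 0 regions of the list rose in that line, this ranking could put only falls first. The median log2 fold was 0.09 for the regulators, 0.04 for the activated genes and 0.14 for the repressed genes in EBF1-dTAG_C, against 0.09 over all regions, and 0.25, 0.12 and 0.15 in EBF1-dTAG_N, against 0.17, by the authors' deposited table.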

How the data were processed

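The deposited peak lists, 1 per library, hold a score, a fold enrichment (ratio) and −log10 p-values and q-values per peak, which are the authors'. The 2 deposited tables, 1 per line, hold the authors' comparison of dTAG-13 with DMSO: log2 fold change and mean abundance in log2 CPM, with the F score of the test and its p-value before and after Benjamini-Hochberg adjustment. Per the submitters' processing notes, edgeR 3.32.0, MACS2 2.2.7.1, deepTools 3.3.2, Bowtie2 2.3.5.1 and SAMtools 1.10 were used on GRCm38; the sources used here do not give Tn5 shift, read filters or scaling. The tables give no value per library, so regions were not refitted.

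Repeated entries (8 and 12) were counted once, and adjusted p-values were recomputed from the deposited p-values over each table without difference beyond rounding. Positive folds mean more open after dTAG-13: where no dTAG-13 list but both DMSO lists held a peak, 92.6% of EBF1-dTAG_C and 96.7% of EBF1-dTAG_N folds were negative. The denominator degrees of freedom behind the deposited p-values were 11.2 (EBF1-dTAG_C) and 110386 (EBF1-dTAG_N). The spread of EBF1-dTAG_N was thus pooled over regions, so that p-values cannot be set side by side between lines. Summit pileup and background were solved from fold enrichment and −log10 p-value, with a whole-number pileup for 100% of 2000 peaks per library (relative tolerance 1e-04); they are unscaled, and depth in reads is unknown. A region without a peak has no pileup. Pileups were used as a description only.

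Approximate standard errors were the absolute log2 fold over the root of F, and line differences used t with 11.2 degrees of freedom, adjusted over 43350 pairs (overlap of at least 1 bp). The t test on given errors, its adjustment, the degrees of freedom, the pileup solution and the within-line permutation test were tested on simulated data. The approximate standard errors themselves, the pairing by overlap and the replicate block were not. RefSeq start windows and gene spans were of GRCm38.p6, and both genes matched. Values are given for each region with an adjusted p under 0.05, the most abundant region and both start regions of each gene, for the 4 best-ranked genes of each list (1 of them is not reported here) and for the 5 most similar genes; neighbouring regions were added after their values were seen. The members and lists were chosen with earlier results of these data known. Analysis used Python 3.11.15, numpy 2.4.6, pandas 2.3.3 and scipy 1.17.1. Alternatives were thresholds, centring, distance limits, peak cutoffs and left-out libraries.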

Additional observations from a re-analysis of the deposited data

How the results depend on the processing

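With an absolute log2 fold of at least 1 required, Pax5 kept 0 falling regions in EBF1-dTAG_C, 2 in EBF1-dTAG_N and 0 rising in EBF1-dTAG_N, while Zcchc7 counts were still 5 and 6. At an adjusted p under 0.01, 1 Pax5 region fell in EBF1-dTAG_C and 1 rose in EBF1-dTAG_N. Centred folds gave 0 rising and 6 falling Pax5 regions in EBF1-dTAG_N, and the denominator of EBF1-dTAG_C gave 1 rising. For Zcchc7 in EBF1-dTAG_N, centred folds gave 7 falling regions in place of 6. The added one, chr4:44905578-44906365, had a log2 fold of -0.18 by the authors' deposited table (adjusted p = 0.131). Its adjusted p on the centred fold was 0.00162 (t test on approximate standard errors). With regions inside the span only, 3 Zcchc7 regions fell in EBF1-dTAG_C, since 2 of the 5 lie outside the gene. All other counts stayed within 1.5 times.

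Peak-number differences were small and turned sign: with the best 34202 peaks of each list they were 0.75 for Pax5 and 2 for Zcchc7, and Zcchc7 in EBF1-dTAG_N alone gave 1. Leaving out each library gave -1.75 to -0.25 for Pax5 and -2.25 to -0.25 for Zcchc7. With the replicate block, labels swapped within same-numbered pairs, the differences were -1 (exact permutation p = 0.5) and -1.25 (exact permutation p = 1.0). Deviations of same-numbered libraries correlated at -0.07 and 0.0013. Peak names inside the EBF1-dTAG_C lists carry the numbers 1 and 3 (dTAG-13) and 4 and 2 (DMSO). The main test therefore did not pair libraries by number, and other pairings were not examined. The line difference gave 0 calls also at a reciprocal overlap of 50%. The causes of these shifts were not tested. With 2 libraries per group, the spread behind an EBF1-dTAG_N p-value is pooled over regions, and faint regions near 6 to 10 tags sit at the limit of peak calling.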

Other observations

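Faint openings around the pair were mostly seen in few libraries. Of the 17 intervals with a peak in 1 library alone, 7 had it after dTAG-13 and 10 with DMSO. In 3 intervals, all assigned to Zcchc7, at most 2 dTAG-13 libraries and every DMSO library held a peak, while 1 interval had the reverse pattern. That interval is the region next to the 228.0 kb element (chr4:44939826-44940128 in EBF1-dTAG_C), with summit pileups of 13 and 9 after dTAG-13, against 15 and no peak with DMSO, in EBF1-dTAG_C, and 12 and 16, against no peak in either DMSO library, in EBF1-dTAG_N. Its log2 fold did not pass in either line. The shares of these peak patterns over all regions were not counted, and the dTAG-13 libraries were shallower in both lines.

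The 141.5 kb upstream interval inside Zcchc7 had, in EBF1-dTAG_C, a summit pileup of 23 in dTAG-13 replicate 1 and no peak in replicate 2, against 7 and 12 with DMSO. In EBF1-dTAG_N it had 23 and 33 after dTAG-13, against 47 and 42 with DMSO. Its log2 fold was 0.89 in EBF1-dTAG_C (adjusted p = 0.493) and -0.17 in EBF1-dTAG_N (adjusted p = 0.604) by the authors' deposited table; the difference between them, 1.05 (95% interval -0.26 to 2.37), was the largest of the 32 pairs.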
